A study of Mus musculus with 9 samples.

Results

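The skeletal muscle genes of mouse limb micromass cultures were followed across 9 libraries. They are 36 named genes of the muscle lineage, chosen by symbol from the 52550 genes of the deposited count table, and all 36 were found. Micromass cultures are dense drops of limb bud cells, here from mouse forelimbs at embryonic day 12, in which the mesenchyme forms cartilage. For 6 days, 3 cultures were kept with Z-VAD-FMK (FMK) and 3 with Q-VD-OPH (OPH), pan-caspase inhibitors at 100 µM, and 3 with the vehicle DMSO alone. No genotype, strain or transgene is named for any group, so the groups share everything the labels give except the compound. The labels call the cultures of a group biological replicates and number them 1 to 3, without saying what a number marks. Without a term for the number, the p-values below therefore measure the spread between the cultures of a group. Those of fits with a term for the number measure only the spread left after the differences between numbers are taken out.

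Skeletal muscle of the limb does not come from the limb mesenchyme that makes cartilage, but from precursors that migrate in from the somites and express Pax3. These cells become myoblasts under the transcription factors Myf5, Myod1, Myf6 and Myog, fuse through the membrane proteins myomaker and myomixer, and assemble sarcomeres. Embryonic fibres use developmental forms of the contractile proteins, many of which the heart also uses, before the adult forms replace them.

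Transcripts of differentiated muscle were present in every library, while Pax3, Pax7, Myf5, Myf6 and Ckm were at or near the limit of detection. Of the 36 genes, 31 had enough counts to be tested. The genes of these 36 that failed the low-count filter were Myf5, Myf6, Pax3, Pax7 and Ckm. Together the 36 genes held 0.0183% to 0.147% of a library's counts. Col2a1, the main cartilage collagen, was at 1330 ± 301 CPM (counts relative to the scaled library total, SD, n = 3) with DMSO in these cultures labelled as limb-derived chondroblasts. Since these are bulk samples, fewer muscle cells and less muscle RNA per cell cannot be told apart.

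Myod1 and Myog, Mymk for myomaker and the embryonic myosin gene Myh3 are defining genes of skeletal muscle, and all were above 0 in 9 of 9 libraries. Several of the 36 genes are shared with other muscle: Tnnt2, Tnnc1, Actc1, Casq2 and Myh7 with the heart, and Des with smooth muscle. Of the heart genes outside the 36, chosen after their values were seen, Myh6 had 6 counts and Myl2 1 count over all 9 libraries. Tnni3, a heart troponin gene, had 79 counts. Adult fast myosin genes were also low, with 29 counts for Myh1, 22 for Myh2 and 58 for Myh4 over the 9 libraries.

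The promoters of 28 of the 36 genes were in the RefSeq table used (GRCm38.p6, 250 bases before to 50 after each start), with 31 promoters in all since some genes have several starts. The E-box CANNTG, the sequence that myogenic factors bind, was in 27 of these 31 promoters (87.1%), against 63.4% of the promoters of genes tested and 72.3% of all 32851 promoters. Its form CAGCTG was in 13 (41.9%), against 15.4% and 16.3%. A consensus site of MEF2 factors was in 4 (12.9%, against 1.67% and 3.19%), and a CArG box, the binding site of serum response factor, was in 2 (6.45%, against 1.3% and 1.63%). Each motif was searched on both strands. CAGCTG is counted within CANNTG, and a match describes letters and not a bound site.

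The promoters of 3 genes from successive steps of the lineage are printed 5′ to 3′ in the direction of the gene, with E-boxes and CArG boxes in capitals. They are Myog, the factor of terminal differentiation (chr1:134289754-134290053, plus strand), Acta1, skeletal alpha-actin (chr8:123894726-123895025, minus strand), and Chrna1, a subunit of the acetylcholine receptor (chr2:73580289-73580588, minus strand).
Myog: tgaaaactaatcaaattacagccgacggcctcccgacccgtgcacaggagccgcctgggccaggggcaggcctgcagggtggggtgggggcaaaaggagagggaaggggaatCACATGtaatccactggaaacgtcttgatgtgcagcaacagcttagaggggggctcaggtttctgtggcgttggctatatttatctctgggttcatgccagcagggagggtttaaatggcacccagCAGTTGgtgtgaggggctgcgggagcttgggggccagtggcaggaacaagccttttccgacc
Acta1: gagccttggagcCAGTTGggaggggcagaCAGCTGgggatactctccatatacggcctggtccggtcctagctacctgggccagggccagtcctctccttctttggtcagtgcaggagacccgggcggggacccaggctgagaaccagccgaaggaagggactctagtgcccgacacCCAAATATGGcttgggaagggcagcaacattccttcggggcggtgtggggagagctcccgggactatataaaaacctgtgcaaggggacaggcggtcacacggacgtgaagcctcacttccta
Chrna1: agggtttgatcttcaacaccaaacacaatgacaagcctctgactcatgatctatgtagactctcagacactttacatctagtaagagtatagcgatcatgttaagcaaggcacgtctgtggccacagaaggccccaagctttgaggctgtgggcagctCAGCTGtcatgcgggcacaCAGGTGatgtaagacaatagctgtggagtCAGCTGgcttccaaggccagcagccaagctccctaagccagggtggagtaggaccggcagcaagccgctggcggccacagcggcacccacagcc
Myog held 2 E-boxes, beginning 138 and 12 bases before the start. Acta1 held 2 E-boxes and a CArG box that begins 73 bases before the start. Chrna1 held 3 E-boxes, 2 of them CAGCTG.

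More of the 31 tested genes differed between the replicate numbers than between the compounds. Library 3 of each group had the highest value of 31 of 31 genes, in all 3 groups. Library 1 had the lowest value of 28 genes with DMSO, of 29 with FMK and of 23 with OPH. Summed over the 36 genes, the level was 381, 570 and 1440 CPM in DMSO libraries 1, 2 and 3. With FMK the sums were 193, 430 and 887 CPM, and with OPH 429, 538 and 1240 CPM. Number 3 thus stood 3.77-fold, 4.61-fold and 2.89-fold over number 1 in the DMSO, FMK and OPH groups. The ranges of the 3 groups overlapped, and no group's 3 sums lay wholly apart from another's.

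**Figure D1:**
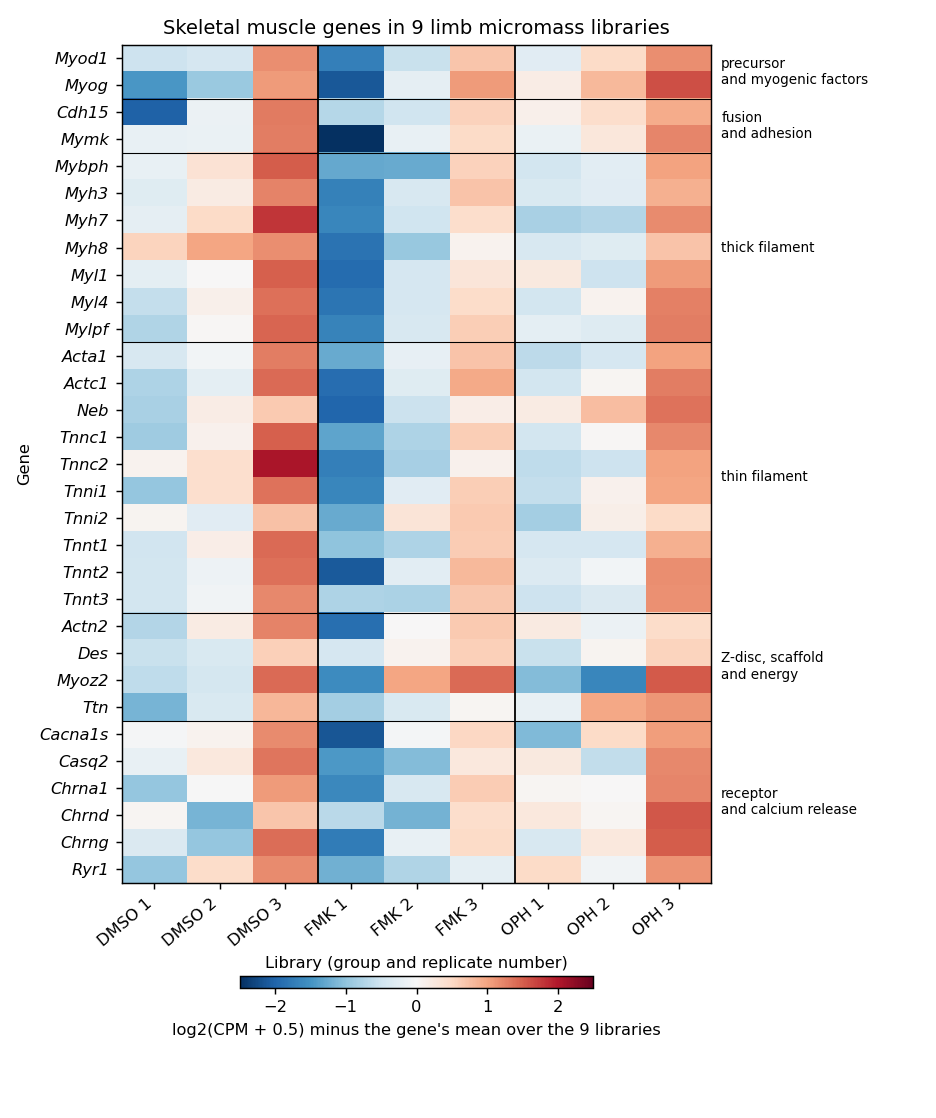
The 31 tested skeletal muscle genes (rows, grouped by role) in 9 libraries (columns, by group and replicate number), coloured by log2(CPM + 0.5) minus the gene's mean over the libraries. Library 3 is the reddest of each group in 31 of 31 genes, and FMK library 1, whose 36 genes sum to 193 CPM, holds most of the darkest blue.

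In a model with group and number, 26 of the 31 genes differed between the numbers (edgeR quasi-likelihood F test, Benjamini-Hochberg), where 5.29% of all genes tested did. Number 3 was higher than number 1 for 29 genes (2.06% of all genes tested were called higher) and lower for 0, with a median log2 difference of 1.80 against 0 for all genes. Number 3 was higher than number 2 for 19 genes (1.39% of all genes), with a median of 1.23. Number 2 was higher than number 1 for 4 genes, Myl4, Acta1, Tnni1 and Tnnc1 (0.498% of all genes), with a median of 0.69. The genes not called between numbers were Tnni2, Chrnd, Cdh15, Ryr1 and Actn2 (adjusted p = 0.0775, 0.0828, 0.0679, 0.329 and 0.051 by the same test). That the level followed the number was known from earlier results of these data.

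Genes of each role took part. Between numbers, 2 of 2 tested myogenic factors were called, 1 of 2 fusion and adhesion genes, 7 of 7 thick filament genes, 9 of 10 thin filament genes, 3 of 4 Z-disc and scaffold genes and 4 of 6 receptor and calcium release genes. Tnnc1, the slow troponin C gene, was at 18.2, 36.5 and 96.3 CPM in DMSO libraries 1 to 3, at 13.4, 19.6 and 52.7 with FMK and at 24.5, 34.8 and 78.9 with OPH. Each group's libraries fell in one order, with number 3 over number 1 by 2.02 ± 0.14 on the log2 scale (edgeR with Benjamini-Hochberg, adjusted p = 1.82e-11). Myog, the differentiation factor, differed by 2.33 ± 0.29 (adjusted p = 2.32e-05) and Myod1 by 1.92 ± 0.31 (adjusted p = 0.000125). Des, the intermediate filament desmin, had a smaller difference, 1.12 ± 0.14 (adjusted p = 2.72e-06). The largest fitted difference was that of Myoz2, a Z-disc protein gene, at 3.40 ± 0.73 (adjusted p = 0.00413).

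Other cell types moved along the numbers as well. Of the 16 tested adipocyte markers, 11 were lower in number 3 than in number 1 (2.53% of all genes tested were) and 0 were higher (2.06% were), with a median log2 difference of -1.93. Their mean log2 CPM was 6.58, 6.21 and 3.84 in DMSO libraries 1 to 3, 2.50, 2.67 and 2.09 with FMK, and 6.35, 6.55 and 4.56 with OPH. Fabp4, Lpl and Scd1 were the adipocyte markers with the highest level, and Fabp4, a fatty acid carrier, was at 823, 701 and 72.4 CPM in DMSO libraries 1 to 3. Of the 3 tested endothelial markers and the 5 tested neural and glial markers, 0 differed between numbers, lists too short to set against 5.29% of all genes. Of the 11 tested smooth muscle markers, 4 differed between numbers (5.29% of all genes did). Of these 11, 3 were higher and 0 lower in number 3 than in number 1 (2.06% and 2.53% of all genes), with a median of 0.68. In number 3, 4 of the 11 were higher than in number 2 (1.39% of all genes). Of the 17 tested cartilage markers, 8 differed between numbers (5.29% of all genes), with 2 higher and 2 lower in number 3 than in number 1. In number 3, 7 of the 17 were higher than in number 2 (1.39% of all genes). In number 2, 4 were lower than in number 1, as were 67 of all 13255 genes tested. Of the 10 tendon and connective tissue markers, 1 was higher and 3 lower in number 3 than in number 1 (2.06% and 2.53% of all genes). Of the 20 macrophage markers, 0 were higher and 3 lower, beside the same shares. The part of these cell types in the muscle values was not tested.

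**Figure D2:**
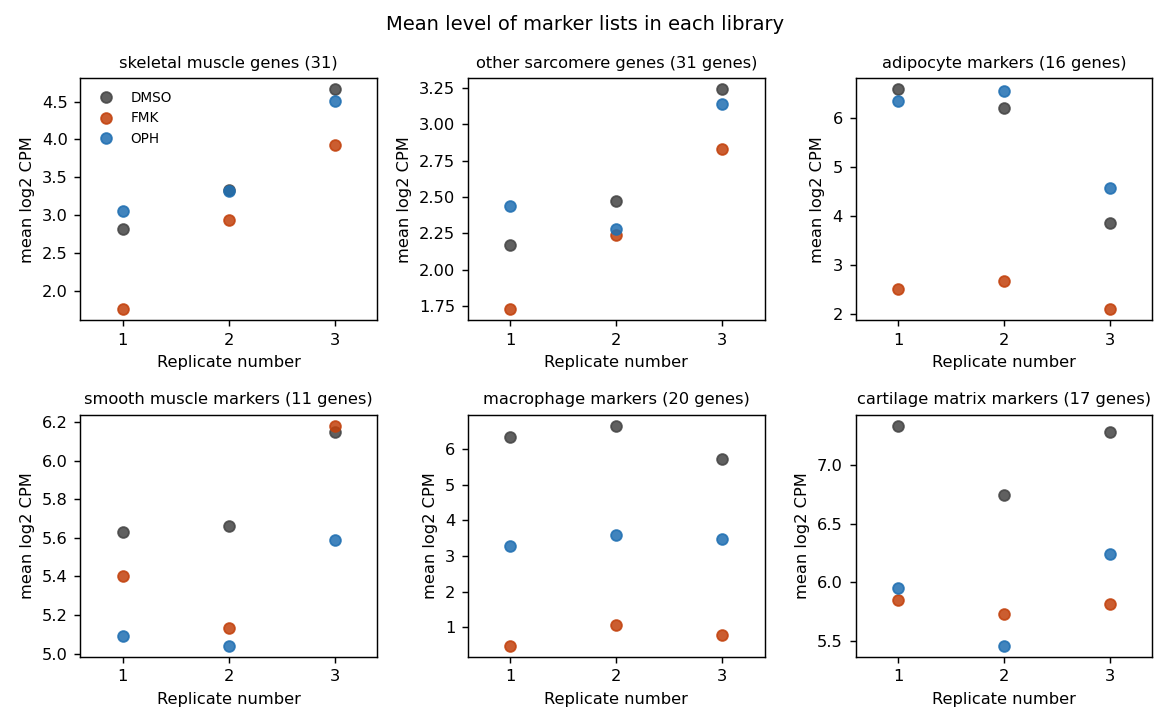
Mean log2 CPM of the tested genes of 6 lists (panels, each with its own vertical scale) in each library, by replicate number on the horizontal axis and coloured by group. The skeletal muscle genes rise to number 3 in all 3 groups (4.66, 3.93 and 4.51 in DMSO, FMK and OPH) where the adipocyte markers are lowest.

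The comparison of FMK with DMSO asked how muscle transcripts differ when caspases are inhibited by this compound. Without a term for the replicate number, 0 of the 31 genes were called (edgeR quasi-likelihood, Benjamini-Hochberg), where 20.5% of all genes tested were, although their median log2 fold change was -0.72 against -0.01 for all genes. At an unadjusted p under 0.05 there were 2 genes (the share of all genes is not given here). DESeq2 and limma-voom each called 1, where they called 20.7% and 19.4% of all genes tested. The smallest adjusted p, 0.0502, was that of Myh8, the perinatal myosin gene. In the authors' deposited table, Myh8 was the only one of the 31 called, lower with FMK, where 2654 of 15611 genes were called. The authors' values called 0 of the 31 for OPH against DMSO (2150 of 15192 genes) and for OPH against FMK (1306 of 13517 genes). The ranges of the groups overlapped for 30 of the 31 genes, the exception being Myh8. The share of all genes without overlap is not given here.

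Within a replicate number, the direction was nearly uniform. FMK was lower than DMSO in 3 of 3 numbers for 24 of the 31 genes and higher in 3 of 3 for 0, where 27.1% of all genes tested were lower in 3 of 3 and 26.2% higher. The median difference was -1.20 in number 1, -0.41 in number 2 and -0.74 in number 3 on the log2 scale. The summed level with FMK was 0.505, 0.755 and 0.617 times that with DMSO in numbers 1, 2 and 3. With the replicate number as a block, 14 genes were lower (13.4% of all genes tested were) and 0 were higher (13.4% of all genes), with a median of -0.71. Of the 14, 9 were called in each of the 8 blocked fits that were run: Tnnc2, Myh3, Tnni1, Casq2, Mybph, Myh8, Myl4, Tnnt1 and Tnnc1.

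Thick filament genes encode the myosin motor and its partners, and 6 of 7 were called lower with the block. Myh8 (ENSMUSG00000055775, chromosome 11, 67277124 to 67308634, plus strand) was at 17.7, 24.1 and 27.0 CPM in DMSO libraries 1 to 3 and at 2.93, 5.88 and 12.7 CPM with FMK, so every FMK library lay under every DMSO library. With the block it was lower by -1.80 ± 0.24 on the log2 scale (edgeR with Benjamini-Hochberg, adjusted p = 7.00e-07). Myl4, the embryonic essential light chain, was at 26.7, 44.1 and 106 CPM with DMSO and at 11.1, 30.2 and 55.6 CPM with FMK. These ranges overlapped, but each FMK library was under the DMSO library of its number (-0.87 ± 0.14, adjusted p = 8.67e-06 with the block, 0.533 without). Myh3, the embryonic myosin, differed by -0.77 ± 0.18, and Myh7, the slow and cardiac myosin, by -1.37 ± 0.34 (adjusted p = 0.00138 and 0.0027 with the block). Mybph, a thick filament binding protein, differed by -1.29 ± 0.30, and Myl1, the fast essential light chain, by -1.11 ± 0.39. Mylpf, the fast regulatory light chain, was at 48.3, 83.0 and 223 CPM with DMSO and at 25.1, 61.6 and 125 with FMK. It was lower in each number but missed the threshold, at -0.71 ± 0.24 (adjusted p = 0.0944 with the block).

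Thin filament genes encode actin and the regulatory troponins, and 6 of 10 were called lower with the block. Tnnc2, the fast troponin C gene (ENSMUSG00000017300, chromosome 2, 164777161 to 164779967, minus strand), was at 15.2, 19.5 and 60.6 CPM in DMSO libraries 1 to 3 and at 4.07, 7.89 and 15.4 CPM with FMK. Only the highest FMK library reached the lowest DMSO library, and the difference was -1.73 ± 0.19 (edgeR with Benjamini-Hochberg, adjusted p = 2.51e-08 with the block, 0.196 without). Tnnc1 and Tnnt1, both slow forms, each differed by -0.77, with standard errors of 0.14 and 0.15 (adjusted p = 7.97e-05 and 0.00023 with the block). Tnni1, slow troponin I, differed by -0.72 ± 0.17 and skeletal actin, Acta1, by -0.50 ± 0.12. Tnnt3, fast troponin T, was near the threshold at -0.55 ± 0.21 (adjusted p = 0.0482). Not called were Tnnt2, Actc1, Neb and Tnni2, with values of -0.66 ± 0.24, -0.48 ± 0.22, -0.82 ± 0.36 and -0.25 ± 0.36.

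Fewer of the remaining genes passed. Casq2, the calcium store protein of the sarcoplasmic reticulum, was the 1 of 6 receptor and calcium release genes called lower. Its value was -1.30 ± 0.29 (edgeR with Benjamini-Hochberg, adjusted p = 0.000963 with the block). Mymk, needed for fusion, was at 9.62, 9.82 and 27.7 CPM with DMSO and at 1.47, 9.59 and 15.6 CPM with FMK. On the log2 scale its within-number differences were -2.48, -0.03 and -0.82, so number 2 hardly differed. The fitted value of -0.89 ± 0.31 was just past the threshold (adjusted p = 0.0457 with the block). Of the 4 tested genes for Z-disc and scaffold proteins, 0 were called. Des, which links Z-discs, was at 19.9, 22.7 and 45.1 CPM with DMSO and at 22.0, 31.7 and 45.0 with FMK, with a difference of 0.19 ± 0.14 and an interval of -0.10 to 0.49. Myog was at 3.41, 5.15 and 21.9 CPM with DMSO and at 1.96, 8.66 and 21.8 with FMK, a difference of 0.09 ± 0.30 with an interval of -0.53 to 0.71. Myod1 differed by -0.61 ± 0.32 (adjusted p = 0.174), so neither tested myogenic factor was called.

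The other receptor and calcium release genes were not called with FMK, also with the block. Chrng, the fetal receptor subunit, was at 2.95, 1.77 and 11.2 CPM with DMSO, at 0.815, 3.40 and 5.69 with FMK and at 2.85, 4.82 and 12.2 with OPH. Chrna1 was at 7.14, 14.3 and 30.6 CPM with DMSO and at 4.40, 10.7 and 22.6 with FMK, lower in each number, but was not called (-0.48 ± 0.22, edgeR with Benjamini-Hochberg, adjusted p = 0.11 with the block). Ryr1, the calcium release channel, was at 0.466, 2.09 and 3.77 CPM with DMSO and at 0.326, 0.619 and 1.10 with FMK, lower in each number. Its fitted value was -1.53 ± 0.71 (adjusted p = 0.117), with an interval of -2.98 to -0.08. For Cacna1s, the voltage sensor that opens this channel, the value was -1.03 ± 0.53 (adjusted p = 0.164), and on the log2 scale the within-number differences were -2.48, -0.13 and -0.69 in numbers 1 to 3.

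Among the genes with no call, direction also differed by number. Cdh15, a cell adhesion gene of myoblasts, was at 0.155, 1.93 and 6.09 CPM with DMSO and at 1.14, 1.39 and 3.49 with FMK, higher in number 1 and lower in the others. Myoz2 was at 0.776, 0.966 and 4.79 CPM with DMSO, at 0.163, 3.40 and 4.77 with FMK and at 0.427, 0.142 and 5.21 with OPH. Its libraries of number 3 were alike while those of number 2 spread most. Actn2, the Z-disc crosslinker, was at 2.79, 5.79 and 12.3 CPM with DMSO and at 0.978, 4.95 and 8.07 with FMK, lower in each number but not called (-0.59 ± 0.40, edgeR with Benjamini-Hochberg, adjusted p = 0.305 with the block).

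**Figure D3:**
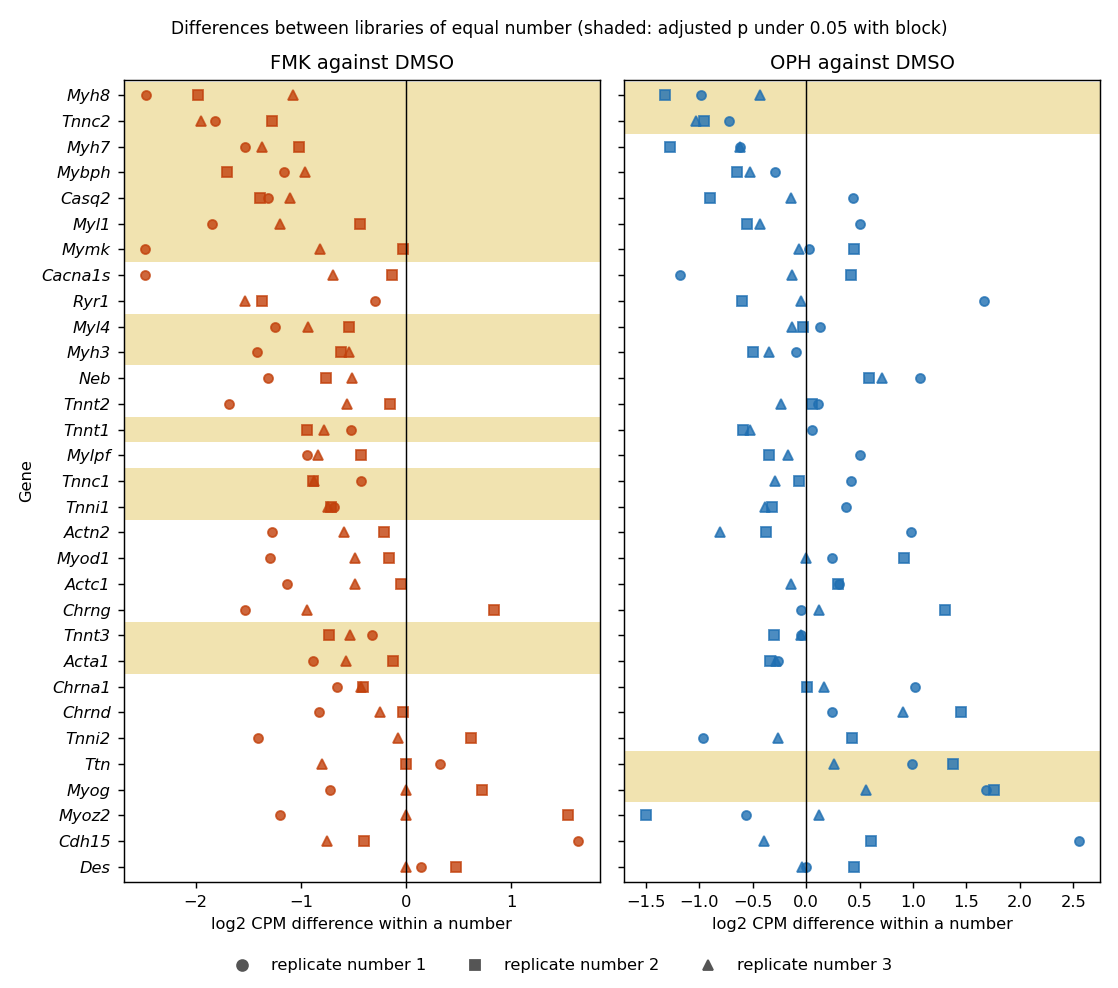
Difference in log2 CPM between each inhibitor library and the DMSO library of the same replicate number (horizontal axis) for 31 genes (vertical axis), with circles, squares and triangles for numbers 1, 2 and 3. Shaded genes passed an adjusted p of 0.05 with the replicate block, 14 with FMK on the left and 4 with OPH on the right, and the horizontal scales of the panels differ.

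With OPH, at the same dose and time, the 31 genes were spread around DMSO. Without the block 0 were called (16.7% of all genes tested were). At an unadjusted p under 0.05 there were 0 (the share of all genes is not given here). DESeq2 and limma-voom called 0, where they called 16.9% and 16.5% of all genes tested. The median log2 fold change of the 31 genes was -0.12 without the block and -0.03 with it. Within a number, OPH was lower than DMSO in 3 of 3 numbers for 7 genes, higher in 3 of 3 for 5 and mixed for 19, and the sums were 1.13, 0.944 and 0.863 times those of DMSO. With the block 2 genes were higher (11.6% of all genes tested) and 2 were lower (11.3%). Both of these comparisons use the same 3 DMSO libraries.

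The 2 genes higher with OPH encode a transcription factor and a giant structural protein. Myog was at 11.7, 18.2 and 32.4 CPM with OPH, against 3.41, 5.15 and 21.9 with DMSO, and was higher in each number by 1.28 ± 0.28 in the fit (edgeR with Benjamini-Hochberg, adjusted p = 0.00198 with the block, 0.583 without). Ttn, the giant spring protein titin, was at 9.25, 21.3 and 23.4 CPM with OPH against 4.50, 8.05 and 19.4 with DMSO. It was higher in each number, by 0.83 ± 0.24 (adjusted p = 0.00938 with the block). Its group ranges overlapped, as did those of Myog. The calls depended on single numbers: that of Myog was lost when number 2 was left out, and that of Ttn when number 1 or number 2 was.

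The 2 genes lower with OPH were also the ones with the lowest fitted values against DMSO. Tnnc2 was at 9.11, 9.93 and 29.5 CPM with OPH against 15.2, 19.5 and 60.6 with DMSO, a difference of -0.93 ± 0.18 (edgeR with Benjamini-Hochberg, adjusted p = 0.000216 with the block, 0.487 without). It was the only one of the 4 called in each of the 8 blocked fits. Myh8 was at 8.82, 9.51 and 19.9 CPM against 17.7, 24.1 and 27.0, a difference of -0.92 ± 0.22 (adjusted p = 0.00252 with the block, lost when number 2 was left out). Of the thick and thin filament genes not called, the values with OPH ran from -0.85 ± 0.32 for Myh7 (interval -1.51 to -0.19, adjusted p = 0.0554) to 0.82 ± 0.32 for Neb (interval 0.16 to 1.48, adjusted p = 0.066). Tnnt1 and Acta1 were at -0.38 and -0.29, with intervals of -0.68 to -0.08 and -0.54 to -0.05. Myl4 and Tnnc1, which fell with FMK by 0.87 and 0.77 on the log2 scale with the block, were both at -0.02 with OPH, with intervals of -0.28 to 0.25 and -0.29 to 0.25.

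Both inhibitors contain valine and aspartate. Their differences include the reactive end, a fluoromethyl ketone in FMK and a difluorophenoxymethyl ketone in OPH, and the cap at the other end. They formed 1 pair at matched dose and time. Without the block 0 of the 31 genes differed between them (8.86% of all genes tested did). At an unadjusted p under 0.05 there were 2 (the share of all genes is not given here). DESeq2 called 1 (10.5% of all genes tested) and limma-voom 0 (7.94%). With the block 12 genes were higher with OPH than with FMK (7.78% of all genes tested were) and 0 were lower (8.36%), and the median was 0.78 against 0.01 for all genes. OPH was higher than FMK in 3 of 3 numbers for 24 of the 31 genes, where 23.9% of all genes were. It was lower in 3 of 3 for 1 gene.

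Neb, the thin filament ruler nebulin (ENSMUSG00000026950, chromosome 2, 52136647 to 52378474, minus strand), was at 5.55, 8.37 and 12.8 CPM with OPH against 0.815, 3.09 and 5.32 with FMK, and these groups did not overlap. The difference was 1.64 ± 0.35 (edgeR with Benjamini-Hochberg, adjusted p = 0.00108 with the block, 0.115 without). Myl4 was at 29.3, 43.3 and 97.2 CPM with OPH, 0.85 ± 0.14 over FMK (adjusted p = 3.36e-05). Tnnc1 was 0.75 ± 0.14 over FMK (adjusted p = 0.000271). These were the 3 genes called in every blocked fit. Both tested myogenic factors were also higher with OPH than with FMK, Myog by 1.19 ± 0.28 and Myod1 by 0.99 ± 0.31 (adjusted p = 0.00546 and 0.0284). The other genes called were Ttn, Chrna1, Tnnc2, Casq2, Myh8, Tnni1 and Mymk, with differences of 0.56 to 1.12. Des differed by -0.07, with an interval of -0.36 to 0.23.

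**Figure D4:**
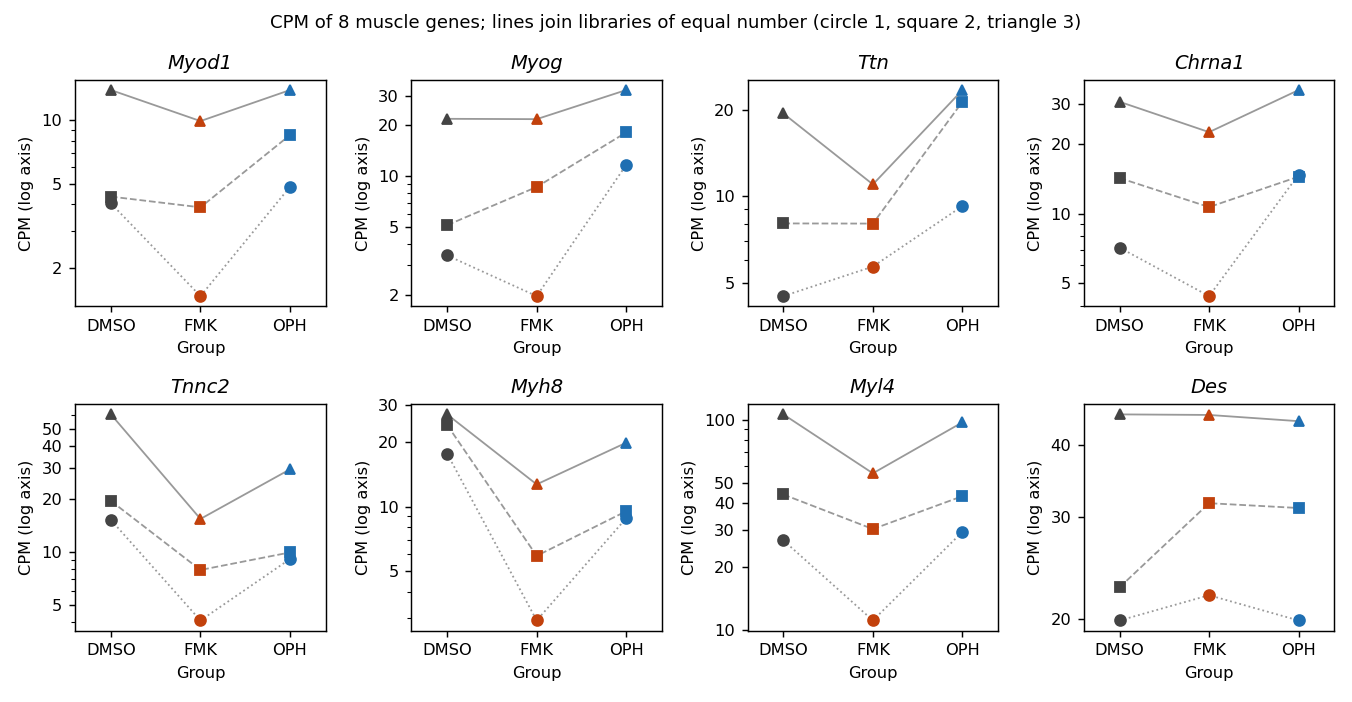
CPM on a log axis of 8 genes in the DMSO, FMK and OPH groups, with lines joining libraries of equal number (circle 1, square 2, triangle 3). Myh8 and Tnnc2 are lower with FMK in every number, Myog and Ttn are higher with OPH than with DMSO in every number, and Des differs by number more than by compound.

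For Myog, Ttn, Tnnc2 and Myh8, picked because they were called with OPH, each level was also taken relative to the 31 genes of its own library. The log2 level of Myog minus the mean of the 31 genes was -0.92, -0.88 and -0.18 in DMSO libraries 1 to 3 and -0.58, 0.23 and 0.54 with FMK. With OPH it was 0.52, 0.89 and 0.52, above every DMSO library, while the FMK libraries reached from the DMSO values to the OPH values. For Tnnc2 this difference was 1.14, 0.97 and 1.27 with DMSO, 0.37, 0.10 and 0.04 with FMK, and 0.17, 0.04 and 0.39 with OPH, so both inhibitors lay under every DMSO library. For Ttn it was -0.55, -0.27 and -0.35 with DMSO and 0.82, 0.13 and -0.43 with FMK. With OPH Ttn was at 0.19, 1.11 and 0.06, above every DMSO library. For Myh8 it was 1.35, 1.28 and 0.11 with DMSO and -0.07, -0.31 and -0.24 with FMK. With OPH Myh8 was at 0.13, -0.02 and -0.17, so OPH library 1 lay above DMSO library 3. These values describe the libraries and were given no test. As the genes were picked by this same difference, the values are no separate support.

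The 5 genes that failed the filter were the precursor markers Pax3 and Pax7, the myogenic factors Myf5 and Myf6, and Ckm. Myf5, the earliest myogenic factor, had 3, 3 and 2 counts in DMSO libraries 1 to 3 and 0 counts in every FMK and OPH library. With the DMSO counts taken as exact and a floor of 3 counts over a group, Myf5 would be 2.46-fold lower with FMK and 2.78-fold lower with OPH. The counting intervals were 3.45 to 15.8 counts with DMSO and 0 to 3.69 with FMK and with OPH. As these intervals overlap, the counts set no lower limit on the difference. With no filter Myf5 was not called (edgeR with Benjamini-Hochberg, adjusted p = 0.221 for FMK and 0.223 for OPH). Pax3, the marker of migrating precursors, had 1 count with DMSO, 11 with FMK (2, 0 and 9) and 2 with OPH. Most of the 11 came from FMK library 3. Pax7, a marker of later precursors, had 0 counts in all 9 libraries, which allows up to 0.153 CPM with DMSO, 0.166 with FMK and 0.147 with OPH. Myf6 had 3, 0 and 1 counts in the 3 groups, and Ckm, muscle creatine kinase, had 2 counts, both in DMSO library 3.

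Muscle-related genes outside the 36 are given by the lists of their roles. Their counts with FMK and the block stand against 13.4% of all genes tested in each direction, and their counts between numbers against 5.29%. Of 20 tested precursor and upstream regulators, 3 differed between numbers, and 3 were higher in number 3 than in number 1 (0 lower). With the block 2 were higher and 3 lower with FMK, a share near that of all genes. Six4, a homeobox factor upstream of the myogenic factors, was higher with FMK by 0.56 ± 0.13, and Mef2c, a partner of the myogenic factors that other mesenchymal cells and macrophages also express, was lower by -0.42 ± 0.09 (edgeR with Benjamini-Hochberg, adjusted p = 0.00173 and 0.000855 with the block). Chodl, the chondrolectin gene, was at 29.5, 16.3 and 22.9 CPM with DMSO and at 46.0, 50.2 and 42.9 CPM with OPH. Its OPH libraries all lay above the DMSO ones, and it was called also without the block (adjusted p = 0.000536).

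Of 20 tested genes of myoblast fusion or of costameres, which join the sarcomere to the membrane, 5 were higher and 2 lower with FMK with the block. Many of these 20 genes are also expressed outside muscle. Flnc, filamin C, was at 34.0, 40.9 and 52.4 CPM with DMSO and at 86.0, 101 and 108 with FMK (1.22 ± 0.11, edgeR with Benjamini-Hochberg, adjusted p = 6.83e-10 with the block, 6.61e-06 without). Mymx, the gene of myomixer, which acts with Mymk, was at 1.24, 4.18 and 11.2 CPM with DMSO and at 0.489, 2.32 and 4.22 with FMK. It followed the numbers, 2.39 ± 0.42 higher in number 3 than in number 1, and was lower with FMK with the block (-1.17 ± 0.42, adjusted p = 0.0371, 0.374 without).

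Of 31 tested sarcomere genes outside the 36, 4 were higher and 5 lower with FMK with the block, close to the 13.4% of all genes tested in each direction. Between numbers 9 of them differed, where 5.29% of all genes did, and 8 were higher in number 3 than in number 1, where 2.06% of all genes were. Ankrd1, a stretch-responsive protein that mesenchymal cells also make, was at 19.1, 20.9 and 44.8 CPM with DMSO and at 50.8, 57.2 and 117 with FMK, higher in each number (1.41 ± 0.13, edgeR with Benjamini-Hochberg, adjusted p = 2.06e-10 with the block, 0.107 without). Smyd1, a muscle methyltransferase gene, was lower by -0.98 ± 0.36 (adjusted p = 0.0392). Tpm1, a tropomyosin gene used in many cell types, was higher with FMK by 0.35 ± 0.07.

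Of 15 tested excitation and contraction coupling genes, 1 was higher and 2 were lower with FMK with the block, no more than the 13.4% of all genes tested in each direction. Among 7 tested neuromuscular junction genes, 2 were higher and 0 lower, too few to set against that share. One of them, Nes, the intermediate filament nestin of young muscle and of other progenitors, was higher in each number, by 1.51 ± 0.14 (edgeR with Benjamini-Hochberg, adjusted p = 4.99e-10 with the block, 0.106 without). Of 21 tested muscle metabolism genes, 7 were lower with FMK and 0 higher, against the same 13.4% each way. Mb, myoglobin, was at 2.48, 10.6 and 30.5 CPM with DMSO and followed the numbers (2.49 ± 0.29 from number 1 to 3), whereas Cox8b, a cytochrome oxidase subunit of muscle and of brown fat, was at 13.7, 12.1 and 0.145 CPM. Its low value in number 3 had the direction of the adipocyte markers.

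Markers of other cells also differed between the compounds where the muscle genes did. Of the 20 macrophage markers, 20 were lower with FMK and 20 with OPH (13.4% and 11.3% of all genes tested were lower with the block), and their summed level was 1550 to 3010 CPM in the DMSO libraries, 38.3 to 56.0 in the FMK libraries and 262 to 306 in the OPH libraries. Of the 17 tested cartilage markers, 16 were lower with each inhibitor with the block. Of the 16 tested adipocyte markers, 13 were lower with FMK, while with OPH 1 was higher and 2 were lower. The summed smooth muscle markers ranged from 2010 to 2990 CPM in DMSO, 1760 to 3970 in FMK and 1340 to 1990 in OPH libraries, and Des is also a gene of these cells. The part of these cells in the muscle values was not tested. Of the 36 genes, 8 overlap another annotated gene that had counts, and Tnnc2 lies across from Ube2c (63.3 to 92.7 CPM), Tnnc1 from Nisch (236 to 329 CPM) and Mybph from Adora1 (1.28 to 5.12 CPM). Whether the counts used the strand is not given in the sources used here, so the values of these 3 genes are uncertain.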

How the data were processed

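Per the labels' protocols, the 9 libraries were prepared from the 3' ends of transcripts. The authors deposited raw counts per gene (5659789 to 6867350 per library) and, per the file headers, a log2 fold change and a p-value with its adjusted form for each comparison. The submitters' processing notes name mm10, STAR, cutadapt, DESeq2, FastQC and MultiQC. How reads were counted, with which annotation and strand setting, is not given in the sources used here. The 99 spike-in rows (1 count in all) were left out. Libraries were matched to samples by column name. Most column names add a letter a to the sample title, and its meaning is not given in the sources used here. The columns without it were those of DMSO library 3 and OPH library 3.

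The main test used edgeR 4.0.16 (R 4.3.3) on the counts: filterByExpr (13255 genes), TMM scaling, a robust quasi-likelihood fit to all 9 libraries with 1 coefficient per group, two-sided F tests and Benjamini-Hochberg adjustment over all genes tested, threshold 0.05. CPM are on the TMM scale, log2 CPM have a prior count of 2, values after ± on log2 fold changes are standard errors, and intervals are at 95%. The floor is 3 counts over a group and, as PCR copies are not told apart, covers counting error only. An exact two-sided permutation test of 3 against 3 cannot go below 0.1. The replicate block was an alternative fit. Deviations from the group means correlated at 0.102 to 0.344 between libraries of equal number and at -0.275 to 0.0147 between others, so the numbers were taken as pairs, a pairing that comes from the data and not from the labels. Alternatives used DESeq2 1.42.0 and limma 3.58.1, other filters and scaling, and fewer libraries. The test was checked on simulated counts.

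All 36 genes were matched by identifier to GENCODE M21, whose GRCm38 positions are printed. The 36 genes and the other lists were chosen with earlier results of these data known. All 36 may be named. Of other muscle lists, the named genes come from the 3 smallest p in each comparison, and of other cell types from the 3 with the highest level.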

Additional observations from a re-analysis of the deposited data

Results flagged for a closer look

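For 3 genes, the FMK library lay below and the OPH library above the DMSO library of its number in 3 of 3 numbers, some by little, and both differences use the same DMSO libraries. For Neb the log2 difference from DMSO was -1.31, -0.76 and -0.51 with FMK in numbers 1 to 3, and 1.07, 0.59 and 0.71 with OPH. For Chrna1 it was -0.66, -0.41 and -0.43 with FMK, and 1.02, 0.01 and 0.17 with OPH. For Chrnd, another acetylcholine receptor subunit gene, it was -0.83, -0.03 and -0.25 with FMK, and 0.24, 1.45 and 0.91 with OPH. None of the 3 was called against DMSO with either compound, also with the replicate block (edgeR, Benjamini-Hochberg, adjusted p for FMK and OPH of 0.096 and 0.066 for Neb, 0.11 and 0.201 for Chrna1, and 0.638 and 0.282 for Chrnd). The difference between the compounds was tested by OPH against FMK with the block. It passed for Neb (adjusted p = 0.00108) and Chrna1 (adjusted p = 0.00527) and not for Chrnd (adjusted p = 0.119), whose level was 0.309 to 4.89 CPM. Without the block, none of the 3 passed, with adjusted p of 0.115, 0.64 and 0.294.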

How the results depend on the processing

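The test without a replicate block gave 0 genes in each comparison, and this depended on the settings. For genes lower with FMK than DMSO, library size alone, the stricter filter (5 CPM in 3 libraries), DESeq2, limma-voom and a fit to the 2 groups compared gave 1 each, no filter 2, and libraries numbered 1 and 2 only 5. Leaving out 1 library gave 0 to 2 lower and 0 higher, with medians of -1.45 (without FMK 3) to 0.10 (without DMSO 3). For OPH against DMSO, no filter and libraries numbered 1 and 2 each gave 1 lower, the latter with a median of 0.04. Leaving out 1 library gave 0 to 1 higher, 0 lower and medians of -0.72 to 0.68. For OPH against FMK, no filter and DESeq2 each gave 1 higher. Leaving out 1 library gave 0 to 1 higher, 0 lower and medians of 0.12 to 1.39. Over these alternatives without the block, 13% to 22.4% of all genes tested were called in either direction for FMK against DMSO. The shares were 10.9% to 19.1% for OPH against DMSO and 4.2% to 11.2% for OPH against FMK. The muscle genes tested were 35 with no filter, 26 with the stricter filter and 29 with libraries numbered 1 and 2. Fits to the 2 groups compared tested 29 or 30, and the other alternatives 31.

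The replicate block gave 14 lower for FMK, 2 higher and 2 lower for OPH, and 12 higher for OPH against FMK. Chosen after seeing the data, other blocked fits gave for FMK lower 12 with DESeq2, 14 with limma-voom, 16 with library size alone, 16 with no filter, 11 with numbers 2 and 3, 15 with numbers 1 and 3, and 10 with numbers 1 and 2. For OPH against DMSO, DESeq2, limma-voom, library size alone, no filter and numbers 1 and 2 each gave 2 higher and 2 lower (median 0.09 for numbers 1 and 2). Numbers 2 and 3 gave 1 higher and 3 lower, and numbers 1 and 3 gave 0 higher and 1 lower. For OPH against FMK higher, they gave 10, 8, 15, 16, 4, 9 and 11 in the order used for FMK. Over these other blocked fits, 15.4% to 28.5% of all genes tested were called in either direction for FMK against DMSO. The shares were 13.1% to 24.1% for OPH against DMSO and 7.5% to 18.9% for OPH against FMK. The blocked fit with no filter tested 35 muscle genes and that with numbers 1 and 2 tested 29, where the others tested 31. The number test called 23 to 29 genes over its alternatives (23 to 27 leaving out 1 library). Over the same alternatives it called 3.62% to 6.29% of all genes tested (3.62% to 4.79% leaving out 1 library). The 29 genes were of 35 tested with no filter, and the stricter filter gave 24 of 26. Leaving out 1 library, the FMK values of Acta1, Tnnt3 and Tnnc1 ranged from -1.11, -1.25 and -1.61 (without FMK 3) to 0.19, 0.13 and 0.06 (without DMSO 3), and the OPH against FMK value of Tnni1 from 1.13 (without FMK 3) to -0.03 (without OPH 3). The cause was not tested. Counts under about 3 per group limit Myf5, Myf6, Pax3 and Ckm.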
